A study of Mus musculus with 15 samples.

Results

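Heat shock proteins and their co-chaperones were followed in the right hippocampus of newborn mice across 5 treatment groups. The genes were 9 named members, Hsp90aa1, Hsp90ab1, Hspa8, Hspa4, Hsph1, Dnaja1, Dnajb1, Dnajb6 and Hspb1, each read from the brightest probe set that the platform annotation assigns to that gene symbol alone. Of the 9 members, 8 had such a probe set among 19938 genes measured in the same way. Hsp90ab1 (chr17:45567778-45573261 of GRCm38.p6) had none and was not analysed here.

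The pups were male C57BL/6 mice sampled on postnatal day 9, after treatment between postnatal days 5 and 9, with 3 arrays in each group. The groups were severe stress with morphine (SSM), severe stress with saline vehicle (SSS), mild stress with morphine (MSM), mild stress with saline vehicle (MSS) and untreated controls (CC). Neither the stress procedures nor the dose of morphine is stated in the sources used here. Litters held at most 7 pups per dam, but no source ties a pup to its litter, so p-values measure only the spread between these arrays.

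Each sample was hybridised to an Affymetrix Mouse Gene 1.0 ST array, whose probe sets were summarised by RMA on a log2 scale, so that a difference of 1 is a 2-fold change in signal. Array medians lay between 5.41 and 5.60, and the array SSM 3 had the highest. Pairs of arrays correlated at 0.990 to 0.998 across genes. Markers of hippocampal neurons (5 of 6 measured) averaged 8.35 to 8.95 on 14 arrays and 7.82 on MSM 3, where all 5 markers of thalamus were at their highest. Markers of striatum were highest on SSM 1 (a list mean of 9.96), followed by CC 1 (8.54) and MSM 2 (7.93). They averaged 6.33 to 7.08 on the remaining arrays. The tissue is a mixture of cells, so fewer cells of a type and less RNA per cell cannot be told apart.

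Heat shock proteins are molecular chaperones that bind unfolded or partly folded proteins. HSP70 chaperones cycle between ATP-bound and ADP-bound states: J-domain co-chaperones deliver substrates and start ATP hydrolysis, and nucleotide exchange factors reset the cycle. HSP90 acts later on a narrower set of clients, steroid hormone receptors among them, and small heat shock proteins hold unfolded proteins without ATP. Many of these genes are induced through heat shock factors, which bind repeats of the unit GAA and its reverse complement TTC in promoters.

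The promoters show which members carry such repeats next to the start of the gene. RefSeq sequence of GRCm38.p6 was available for 6 of the measured members, and the 250 bases before each start were searched on both strands for 2 neighbouring units (GAANNTTC or TTCNNGAA) and for 3 (GAANNTTC extended by NNGAA, or TTCNNGAA extended by NNTTC). A 3-unit match always contains both 2-unit motifs. Hsph1, Dnaja1, Dnajb6 and Hspb1 held a 2-unit match, as did 14.5% of all genes with a window. Dnajb6 alone among the 6 held a 3-unit match, as did 0.514% of all genes. Windows of the same length are printed below 5′ to 3′ on the + strand, with matches in capitals, for Dnajb6 because of its 3-unit match and for the 3 further members with the smallest F-test p-values. They cover chr5:29735648-29735897 for Dnajb6, chr8:83607925-83608174 for Dnajb1, chr5:135887669-135887918 for Hspb1 and chr4:40722218-40722467 for Dnaja1.
Dnajb6: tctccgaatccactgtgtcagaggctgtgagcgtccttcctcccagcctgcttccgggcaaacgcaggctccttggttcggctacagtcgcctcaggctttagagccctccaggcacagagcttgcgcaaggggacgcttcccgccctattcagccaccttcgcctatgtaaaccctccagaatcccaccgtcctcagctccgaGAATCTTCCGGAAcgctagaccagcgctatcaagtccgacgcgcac
Dnajb1: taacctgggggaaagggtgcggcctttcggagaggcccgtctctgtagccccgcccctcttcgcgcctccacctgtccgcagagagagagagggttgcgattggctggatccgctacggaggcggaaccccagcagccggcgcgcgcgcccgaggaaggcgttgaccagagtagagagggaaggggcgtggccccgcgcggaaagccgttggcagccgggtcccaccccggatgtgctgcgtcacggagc
Hspb1: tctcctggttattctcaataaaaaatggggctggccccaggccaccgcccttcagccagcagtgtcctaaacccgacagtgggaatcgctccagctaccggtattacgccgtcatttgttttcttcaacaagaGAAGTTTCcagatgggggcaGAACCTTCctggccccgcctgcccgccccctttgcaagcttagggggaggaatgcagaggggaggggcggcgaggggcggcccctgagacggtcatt
Dnaja1: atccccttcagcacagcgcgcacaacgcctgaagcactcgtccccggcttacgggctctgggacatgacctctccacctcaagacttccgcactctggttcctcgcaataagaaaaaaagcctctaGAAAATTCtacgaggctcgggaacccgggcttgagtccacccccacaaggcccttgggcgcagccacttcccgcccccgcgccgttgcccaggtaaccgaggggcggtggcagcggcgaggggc
The Dnajb6 match GAATCTTCCGGAA lay 46 to 34 bases before the start. Hspb1 had 2 separate matches, at 117 to 110 and at 97 to 90 bases before the start. Dnaja1 had 1 match, 124 to 117 bases before the start. The Dnajb1 window held neither motif, which says only that these letters were absent from this window.

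No member passed an adjusted p of 0.05 in limma in any of 12 comparisons, or in the F-test over the 5 groups. Across all genes, the adjusted threshold was passed by 0% in the F-test and in every comparison except severe against mild stress averaged over drugs, where 0.01% passed (2 genes). At an unadjusted p under 0.05, 11 of 96 member differences were called, and they belonged to Dnajb1, Dnajb6 and Hspb1. Against CC, these were 0 of 8 members for SSM (9.01% of all genes), 0 for SSS (2.03%), 1 for MSM (2.76%), 1 for MSS (2.22%) and 0 for the mean of the 4 treated groups (1.86%). Between treated groups, they were 1 member for SSM against SSS (9.37%), 2 for MSM against MSS (2.57%), 1 for SSS against MSS (2.85%) and 1 for SSM against MSM (14.3%). They were also 1 member for morphine against saline averaged over stress levels (7.64%), 2 for severity averaged over drugs (12.1%), 1 for the interaction of morphine with severity (3.65%) and 2 in the F-test (7.24%). The comparisons share arrays, the 3 CC arrays above all, so these counts are not independent.

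Counting members whose groups did not overlap gave 0 of 8 for SSM against CC (11.9% of all genes), 0 for SSS against CC (9.36%), 0 for MSM against CC (7.84%) and 2 for MSS against CC (9.41%), Hspa8 and Dnajb6. Between treated groups it gave 2 for SSM against SSS (12.9%), Dnaja1 and Dnajb1, and 1 for MSM against MSS (7.35%), Dnajb6. It gave 3 for SSS against MSS (10.9%), Hspa8, Hspa4 and Dnajb6, and 1 for SSM against MSM (14.1%), Dnajb1. No member separated the 4 treated groups from CC (0.176%), morphine from saline (0.186%) or severe from mild stress (1.1%).

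**Figure D1:**
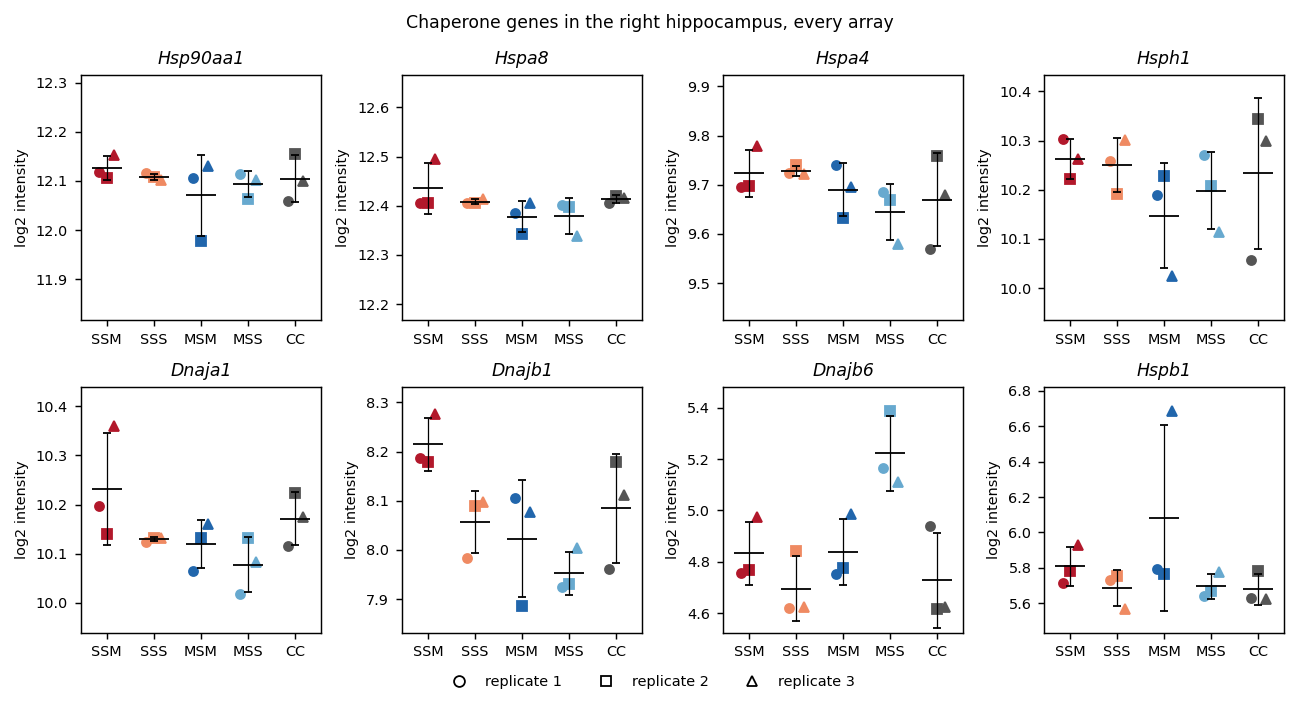
Log2 signal of the 8 measured members on each of the 15 arrays, 1 panel per gene with its own axis, for SSM, SSS, MSM, MSS and CC from left to right. Points are single arrays, lines are group means and error bars are SD (n = 3); the MSS arrays stand above all others for Dnajb6, and MSM 3 stands above all others for Hspb1 at 6.69.

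**Figure D2:**
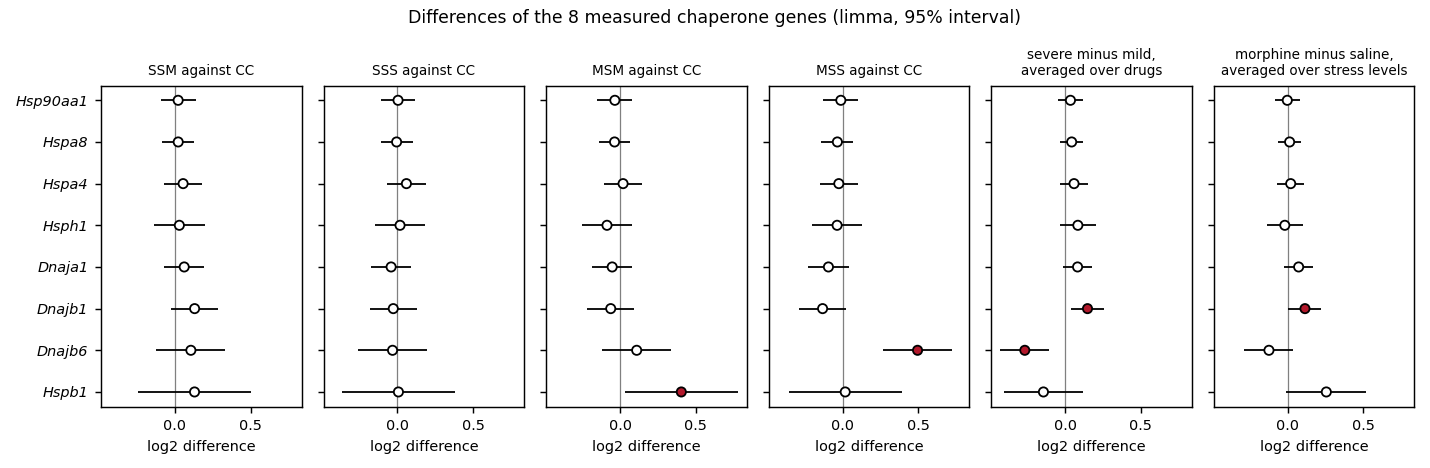
Log2 difference of each member in 6 comparisons, SSM, SSS, MSM and MSS against CC, severe minus mild stress and morphine minus saline, as points with horizontal bars for the 95% interval from limma. Filled red points mark differences with an unadjusted p under 0.05, none of which passed after adjustment; the widest intervals are those of Hspb1 and Dnajb6.

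Among the members, the group means of Hsp90aa1 and of the HSP70 family, Hspa8, Hspa4 and Hsph1, differed least. Hsp90aa1 and Hspa8 were brighter than 99.83% and 99.89% of genes. Whether signal this high narrows the differences that an array shows was not tested. Hsp90aa1 (chr12:110691036-110696395), the stress-inducible cytosolic HSP90, averaged 12.13 ± 0.025 in SSM, 12.11 ± 0.0066 in SSS, 12.07 ± 0.082 in MSM, 12.09 ± 0.027 in MSS and 12.10 ± 0.048 in CC (SD, n = 3 each). Its 8 pairwise differences lay between -0.034 and 0.055, and their 95% intervals together spanned folds of 0.902 to 1.12. The widest difference, SSM against MSM, was 0.055 (SE 0.054, adjusted p = 0.634 in limma), and it was -0.018 after quantile normalization. Its lowest value, 11.98, was on MSM 2, and the highest, 12.16, was on CC 2.

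Hspa8 (chr9:40801276-40805202), the constitutive cytosolic HSP70, measured 12.40, 12.41 and 12.50 on the SSM arrays and 12.40, 12.40 and 12.41 on the SSS arrays. It measured 12.34 to 12.41 in MSM, 12.40, 12.40 and 12.34 in MSS, and 12.40, 12.42 and 12.42 in CC. All MSS arrays lay below all CC arrays and below all SSS arrays, in each case by a gap within the rounding shown, and 4 arrays held exactly the same Hspa8 value. On the other probe sets of Hspa8 alone, which were about as bright, MSS and CC overlapped. There MSS reached 12.43 and 12.39, and CC went down to 12.36 and 12.38. MSS also overlapped SSS on the first of them, but not on the other. The smallest p of this gene was for severity averaged over drugs, a difference of 0.043 (SE 0.035, adjusted p = 0.645 in limma), and no pairwise 95% interval went beyond folds of 0.907 and 1.12.

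A pair of Hspa8 probe sets is also annotated to the small nucleolar RNA genes Snord14c and Snord14d, which lie within Hspa8 introns. On these, SSS 1 was lowest, at 6.73 and 6.77, and the other 14 arrays lay between 7.21 and 7.81. SSS was lower than MSS by 0.41 on both (SE 0.16 and 0.17, adjusted p = 1.00 in limma), a difference in which SSS 1 stood apart. On the brightest Hspa8 probe set, SSS was instead higher than MSS by 0.029.

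Hspa4 and Hsph1 belong to the HSP110 group, large HSP70 relatives that act as nucleotide exchange factors for HSP70. Hspa4 (chr11:53259814-53300479) measured 9.70, 9.70 and 9.78 in SSM, 9.72, 9.74 and 9.72 in SSS, 9.74, 9.63 and 9.70 in MSM, 9.69, 9.67 and 9.58 in MSS, and 9.57, 9.76 and 9.68 in CC. All 3 SSS arrays lay above all 3 MSS arrays, while CC spanned both groups. The difference of SSS against MSS was 0.084 (SE 0.059, adjusted p = 1.00 in limma). Hsph1 (chr5:149616843-149636498) averaged 10.26 ± 0.040 in SSM, 10.25 ± 0.055 in SSS, 10.15 ± 0.11 in MSM, 10.20 ± 0.078 in MSS and 10.23 ± 0.15 in CC (SD, n = 3 each). For Hsph1 the groups overlapped in all 8 pairwise comparisons. Severe stress exceeded mild stress by 0.084 averaged over drugs (SE 0.055, adjusted p = 0.568 in limma).

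The J-domain proteins Dnaja1 and Dnajb1 had their highest group mean in SSM, as did Hsp90aa1, Hspa8 and Hsph1, 5 of 8 members in all. SSM is a group in which 76.9% of all genes were higher than in CC. Dnaja1 (chr4:40722468-40734965), an HSP70 partner in client folding, measured 10.20, 10.14 and 10.36 in SSM, 10.12, 10.13 and 10.13 in SSS, 10.07, 10.13 and 10.16 in MSM, 10.02, 10.13 and 10.08 in MSS, and 10.12, 10.22 and 10.17 in CC. SSM lay above SSS on all arrays, and SSM 3 stood above every other array. The smallest p of Dnaja1 was for severity averaged over drugs, a difference of 0.082 (SE 0.044, adjusted p = 0.477 in limma). A second probe set of Dnaja1 alone also had its highest group mean in SSM, 9.20 ± 0.10, against 9.00 to 9.18 in the other groups. On it, too, SSM lay above SSS on all arrays. On a probe set shared with the microRNA gene Mir207, SSM instead had the lowest group mean, 8.60 ± 0.068, against 8.66 to 8.76 in the other groups.

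Dnajb1 (chr8:83608175-83612653), the co-chaperone known as Hsp40 and a classical heat shock target, measured 8.19, 8.18 and 8.28 in SSM and 7.98, 8.09 and 8.10 in SSS. It measured 8.11, 7.89 and 8.08 in MSM, 7.92, 7.93 and 8.003 in MSS, and 7.96, 8.18 and 8.11 in CC. The SSM arrays lay above all SSS, MSM and MSS arrays, but CC 2 reached the level of the lowest SSM array. The group means were 8.21 ± 0.055 in SSM, 8.06 ± 0.063 in SSS, 8.02 ± 0.12 in MSM, 7.95 ± 0.044 in MSS and 8.08 ± 0.11 in CC (SD, n = 3 each).

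Dnajb1 was higher in SSM than in SSS by 0.16 (SE 0.072, adjusted p = 0.528 in limma) and higher in SSM than in MSM by 0.19 (SE 0.072, adjusted p = 0.276 in limma). Averaged over stress levels, the morphine difference was 0.11 (SE 0.051, adjusted p = 0.649 in limma). Averaged over drugs, severe stress exceeded mild stress by 0.15 (SE 0.051, adjusted p = 0.276 in limma). That difference kept an unadjusted p under 0.05 in all 22 alternative fits, at values of 0.10 to 0.17. The others kept it in fewer: 8 of 24 fits for SSM against SSS, 18 of 23 for SSM against MSM and 13 of 23 for morphine, and all 3 lost it after quantile normalization, after median centring and without SSM 3. Against CC, SSM was higher by 0.13 (SE 0.072, adjusted p = 0.599 in limma).

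The elevation of SSM moved with 1 array and with scaling. On SSM 3, 88% of genes lay above their own median over the arrays, by a median of 0.15, and the members lay above theirs by a median of 0.13. Hspa8, Hspa4, Dnaja1 and Dnajb1 were all highest there. Against CC, 8 of 8 members were higher in SSM with a median difference of 0.058, and 76.9% of all genes were higher, with a median of 0.062. Without SSM 3, 6 of 8 members and 53.7% of all genes were higher, and after quantile normalization 4 of 8 and 50.9%. The Dnajb1 difference of SSM against SSS was 0.13 without SSM 3 and 0.088 after quantile normalization, and that of SSM against MSM was 0.12 after quantile normalization and 0.12 without MSM 2.

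An SS number in the sample titles, of unstated meaning, is 12 for CC, 11 for the mild groups and 8, 9 or 10 for the severe groups. It cannot be told apart from the stress level, since no number holds both mild and severe arrays. Only SS number 8 holds arrays of both severe groups, SSM 1 and SSS 3, on which Dnajb1 measured 8.19 and 8.10.

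Dnajb6 (chr5:29735898-29786478), a J-domain protein known for suppressing aggregation of polyglutamine proteins, had the smallest F-test p of the members and the widest differences that did not rest on 1 array. It measured 4.75, 4.77 and 4.97 in SSM, 4.62, 4.84 and 4.62 in SSS, and 4.75, 4.77 and 4.99 in MSM. It measured 5.17, 5.39 and 5.11 in MSS and 4.94, 4.62 and 4.62 in CC. All 3 MSS arrays lay above the other 12 arrays, and the other 4 groups overlapped. The group means were 4.83 ± 0.12 in SSM, 4.69 ± 0.13 in SSS, 4.84 ± 0.13 in MSM, 5.22 ± 0.15 in MSS and 4.73 ± 0.18 in CC (SD, n = 3 each).

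Dnajb6 was higher in MSS than in CC by 0.49 (SE 0.11, adjusted p = 1.00 in limma), and it had the smallest p of all genes in that comparison. It was lower in MSM than in MSS, with a difference of -0.38 (SE 0.11, adjusted p = 1.00 in limma), and lower in SSS than in MSS, with a difference of -0.53 (SE 0.11, adjusted p = 0.965 in limma). Averaged over drugs, the difference of severe from mild stress was -0.27 (SE 0.076, adjusted p = 0.185 in limma). The interaction of morphine with severity was 0.52 (SE 0.15, adjusted p = 0.959 in limma). Each of these 5 differences kept an unadjusted p under 0.05 in every alternative that gave a value, and none passed after adjustment. All 5 include the same MSS arrays, so they are not independent. The mean over a gene's probe sets took single-symbol probe sets only, of which Dnajb6 has 1, so that alternative left its values unchanged. The probe set is dim, with a mean of 4.86 over the 15 arrays, so a filter that requires a mean of at least 6 removed Dnajb6 and gave no value for it.

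These values come from a probe set whose annotation lists 1 Dnajb6 transcript, and 4 other probe sets carry both Dnajb6 and Gm4247, a pseudogene in the RefSeq table. The group means of the 4 shared probe sets lay at 10.50 to 10.998 in SSM, 10.40 to 10.93 in SSS, 10.38 to 10.90 in MSM, 10.34 to 10.88 in MSS and 10.36 to 10.88 in CC. MSS differed from CC by -0.016 to 0.0025 on them, so the elevation in MSS was seen on the single-symbol probe set only. All 4 were highest on SSM 3. Each of the 4 lists 12 accessions in its annotation, and the 1 transcript of the single-symbol probe set is among them. The single-symbol probe set was brighter than only 30.35% of genes. Its elevation in MSS therefore concerns a dim row of 1 transcript and was not shown for Dnajb6 as a whole. Which probe set follows the main Dnajb6 transcripts was not tested. Markers of choroid plexus, a tissue within the ventricles beside the hippocampus, were low on MSS 1, MSS 2 and SSS 2 (list means of 5.89 to 5.94). They were 7.30 to 8.36 on the other 12 arrays, and their part in the Dnajb6 values was not tested. Within SSS, Dnajb6 measured 4.84 on SSS 2, and 4.62 on both SSS 1 and SSS 3. Within MSS, it measured 5.17 on MSS 1, 5.39 on MSS 2, and 5.11 on MSS 3, where choroid plexus markers were in the higher range.

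**Figure D3:**
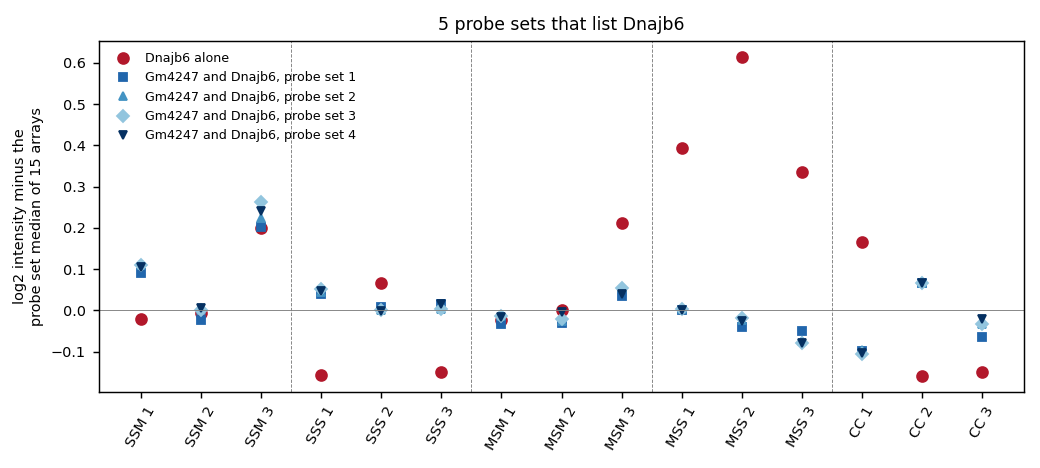
Log2 signal of the 5 Dnajb6 probe sets on each array, less the median of that probe set over the 15 arrays, with SSM, SSS, MSM, MSS and CC from left to right. Red circles are the probe set of Dnajb6 alone and blue symbols the 4 shared with Gm4247; the 3 MSS arrays are the highest of the red series, and not of the blue ones, whose highest array is SSM 3.

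Hspb1 (chr5:135887919-135889563), the small heat shock protein Hsp27, which in brain is found in astrocytes and vessels, measured 5.71, 5.78 and 5.93 in SSM, 5.73, 5.76 and 5.57 in SSS, 5.80, 5.76 and 6.69 in MSM, 5.64, 5.67 and 5.78 in MSS, and 5.63, 5.78 and 5.62 in CC. MSM 3 stood above every other array, and the other 14 lay between 5.57 and 5.93. A second Hspb1 probe set showed the same array, at 6.47 against 5.37 to 5.71 on the others. Hspb1 was higher in MSM than in CC by 0.40 (SE 0.17, adjusted p = 1.00 in limma) and higher in MSM than in MSS by 0.39 (SE 0.17, adjusted p = 1.00 in limma). Without MSM 3 these differences were 0.10 and 0.084.

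On MSM 3, other markers stood apart as well. The 5 thalamus markers averaged 8.97 there, against 6.83 to 7.45 on the other 14 arrays. The 5 hippocampal neuron markers averaged 7.82, against 8.35 to 8.95, and 4 of them were at their lowest. Astrocyte markers averaged 9.94, against 9.59 to 9.85, with 3 of 5 at their highest and 1, Slc1a3, at its lowest. Markers of myelinating oligodendrocytes averaged 7.97, which of the other arrays (6.20 to 8.35) only SSM 1 exceeded. Meninges and fibroblast markers averaged 8.02, within the 6.98 to 8.26 of the others, with 2 of 4 at their highest. Choroid plexus markers averaged 8.21, within the 5.89 to 8.36 of the others, with 1 of 6, Otx2, at its highest. The endothelial and pericyte markers averaged 7.57, within the 7.44 to 7.70 of the others. The part of these tissues and cells in the Hspb1 value was not tested.

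**Figure D4:**
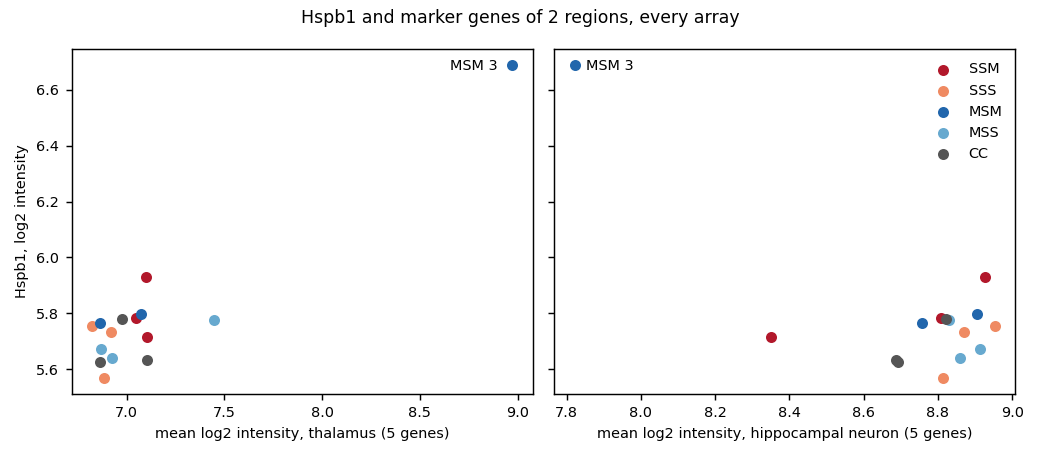
Log2 signal of Hspb1 (vertical axis) against the mean log2 signal of 5 thalamus markers (left) and 5 hippocampal neuron markers (right) on the same array, 1 point per array, coloured by group from SSM to CC. MSM 3 is the array with the highest Hspb1 value, 6.69, with the highest thalamus mean, 8.97, and the lowest hippocampal neuron mean, 7.82.

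The wider chaperone network was read from lists of 87 further genes, 83 of them measured. None passed an adjusted p of 0.05 in limma in any comparison. For severity averaged over drugs, 20 of 83 (24.1%, against 12.1% of all genes) were below 0.05 before adjustment, 19 of them higher under severe stress and 1 lower. The median difference of the 83 genes was 0.063, against 0.035 for all genes and 0.048 for genes with a mean of at least 6. By list, the 20 were 5 of 13 HSP90 and co-chaperone genes, 5 of 23 HSP70 and exchange factor genes, 6 of 24 J-domain genes, 4 of 10 chaperonin genes, 0 of 8 small heat shock proteins and 0 of 5 genes of heat shock factors and stress-related partners. The share was 18.1% for SSM against SSS (9.37% of all genes), SSM against MSM (14.3%) and morphine (7.64%). It was 7.23% for SSM against CC (9.01%) and 3.61% for MSS against CC (2.22%). It was 1.2% for SSS against MSS (2.85%), the mean of the 4 treated groups against CC (1.86%) and the interaction (3.65%). For MSM against CC (2.76%), SSS against CC (2.03%) and MSM against MSS (2.57%) it was 0%. After quantile normalization the count for severity was 6 of 83, 3 higher and 3 lower, against 11.1% of all genes. After median centring the share for severity was 12.05%, with 8 genes higher and 2 lower, against 10.7% of all genes. Without SSM 3 the count for severity was 12 of 83 (14.5%), 10 of them higher, against 10.7% of all genes.

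Fkbp4, an HSP90 co-chaperone of steroid receptors, averaged 9.10 ± 0.034 in SSM, 8.99 ± 0.025 in SSS, 8.94 ± 0.085 in MSM, 8.90 ± 0.095 in MSS and 9.00 ± 0.024 in CC (SD, n = 3 each). Its severity difference was 0.13 (SE 0.043, adjusted p = 0.273 in limma). Dnajb9, a J-domain protein of the endoplasmic reticulum, had a severity difference of 0.23 (SE 0.070, adjusted p = 0.226 in limma). Hspa13, an HSP70 relative, was higher in SSM than in MSM by 0.27 (SE 0.071, adjusted p = 0.177 in limma), and Chordc1, an HSP90 co-chaperone, by 0.28 (SE 0.090, adjusted p = 0.222 in limma). Among the chaperonins, the severity difference was 0.094 for Cct2 (SE 0.039, adjusted p = 0.360 in limma) and 0.092 for Cct6a (SE 0.041, adjusted p = 0.392 in limma). For Tcp1, a subunit of the cytosolic folding ring, it was 0.10 (SE 0.044, adjusted p = 0.375 in limma). Cct2 had its smallest p for MSS against CC, where MSS was lower, with a difference of -0.14 (SE 0.055, unadjusted p = 0.021 in limma). The comparison shown differs between the genes named here, so their values are not a like-for-like set.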

How the data were processed

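Right hippocampi of 15 pups, 3 in each of 5 groups, were profiled on single-colour Affymetrix Mouse Gene 1.0 ST arrays. The authors deposited log2 values made with RMA, per the submitters' processing notes. RMA corrects background, normalizes arrays and summarises probes, but no source used here names the software or its version. Of 35557 probe sets, 21789 carried 1 gene symbol in the platform annotation, 1621 several and 12147 none, and the brightest single-symbol probe set was kept for each of 19938 genes.

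Groups came from the treatment labels. Replicates were numbered in the order of the sample records. Limma 3.58.1 in R 4.3.3 fitted a mean per group on all 15 arrays (10 residual and 4.61 prior degrees of freedom), with two-sided tests, Benjamini-Hochberg adjustment over all genes and a threshold of 0.05. No filter was applied. The number of arrays limits the precision: the median SE of a pairwise difference was 0.081. The code was tested on simulated data. Coordinates and promoters are from RefSeq, GRCm38.p6. The members and lists were chosen with earlier results of these data known. Each member was described, and its difference given with its SE wherever its unadjusted p was under 0.05, or else for its smallest p. Up to 3 genes per chaperone list, those with the smallest F-test p, could be named. Alternatives were quantile normalization, median centring, a filter on dim genes, an intensity trend and the SS number as a block. Further ones were only the groups compared, the mean of a gene's single-symbol probe sets, and arrays left out.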

Additional observations from a re-analysis of the deposited data

How the results depend on the processing

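No member passed an adjusted p of 0.05 in any of 298 combinations of a comparison or F-test with an alternative (limma). The smallest adjusted p of a member over these was 0.106. Of 16 named member differences, 1 reversed: Hsp90aa1 in SSM against MSM was -0.018 after quantile normalization. Hspb1 without MSM 3 is given above. Counts of genes past the adjusted threshold moved as follows, and the cause was not tested. For severity averaged over drugs, 2 genes passed as reported, 39 after quantile normalization, 17 after median centring, 4 with probe sets averaged, and 1 each with the filter on dim genes (a mean of at least 6, which kept 10590 genes and 6 of 8 members, all but Dnajb6 and Hspb1), the intensity trend and the SS number as a random block. Leaving out single arrays gave 1 to 17 there, 17 without SSS 3 and 5 without SSM 3, 0 to 8 for SSM against MSM, of which 8 without SSS 1, and 0 to 1 in the F-test, in MSM against MSS and in all 5 comparisons with CC. The SS number as a fixed block gave 40 for SSM against SSS, 19 for morphine and 2 for the interaction, resting on SS number 8 alone for the drug difference under severe stress. Leaving out SSM 1 and MSM 3 together gave 1 for SSS against MSS and 1 in the F-test. No paired analysis was possible because the labels give no replicate numbers that tie pups across groups. The number of arrays limits what can be seen: the 95% intervals of pairwise member differences together spanned folds of 0.592 (Dnajb6, SSS against MSS) to 1.71 (Hspb1, MSM against CC).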

Other observations

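The genes whose array-to-array pattern was most like the mean of the measured members, with each array centred on its median, were Pla2g7 (Pearson r = 0.829, Spearman rho = 0.493), Nrn1 (r = 0.825, rho = 0.282), Ift57 (r = 0.815, rho = 0.493), Tspan17 (r = 0.811, rho = 0.569) and Hdac6 (r = 0.808, rho = 0.593), over 15 arrays and among 7768 candidate genes. The points share arrays and scaling, and the likeness rested on few arrays: without MSM 3 and MSM 2, r was 0.229 to 0.614 for these genes. For Dnajb6 alone the most alike were Snhg17 (r = 0.818, rho = 0.786), Sat2 (r = 0.751, rho = 0.767), Pan3 (r = 0.730, rho = 0.695), Kcna1 (r = 0.720, rho = 0.686) and Npc1 (r = 0.712, rho = 0.774), and without MSS 2 and MSS 1 r was 0.536 to 0.802 for these genes.

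Cryab, a small heat shock protein of glia, averaged 7.27 ± 0.13 in SSM, 7.20 ± 0.23 in SSS, 7.47 ± 0.38 in MSM, 7.12 ± 0.15 in MSS and 7.18 ± 0.22 in CC (SD, n = 3 each), and its highest value within MSM was 7.91. Cryaa had a smaller F-test p than Cryab but was dim, with a mean of 5.24. The mean of the 4 treated groups exceeded CC by 0.24 for Cryaa (SE 0.085, unadjusted p = 0.013 in limma), which did not pass after adjustment.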
